A study of Danio rerio with 6 samples.

Results

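The Hox genes of zebrafish were examined in osteoblasts, the bone-forming cells, of regenerating scales. Members were all genes of the count tables whose zebrafish symbol is hoxa, hoxb, hoxc or hoxd followed by a paralogue number. This gave 47 of 34289 genes, and hoxa4a and hoxc13b, the other Hox genes among the 49 of the RefSeq annotation, were not analysed here. RNA sequencing was done on cells sorted from fish that carried osx:H2A-mCherry and osx:Venus-hGeminin, both driven by regulatory sequence of osterix (sp7), a gene of committed osteoblasts. The H2A-mCherry reporter marks osteoblast nuclei. The Venus-hGeminin reporter carries the degradation signal of geminin and accumulates in S, G2 and M phase. There were 3 libraries of mCherry-positive, Geminin-positive cells and 3 of mCherry-positive, Geminin-negative cells. All 6 came from scales in day 4 of regrowth, pooled from 3 to 5 fish each, following removal of roughly 50 scales, arranged in 3 rows, per flank. The tissue of all 6 was treated with the enzyme mix Liberase for 1 h. The labels give neither the age of the fish nor the position of the rows along the body. The sample labels and the series' design text disagree on which gate has high activity of the kinase Erk, so the groups are named here by gate alone.

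Hox genes encode homeodomain transcription factors that give cells their address along the head-to-tail axis. They lie in clusters, and in each cluster the genes with low paralogue numbers are switched on toward the head and those with high numbers toward the tail, in the order in which they sit on the chromosome. Fin and limb skeletons reuse the genes of high number, and skeletal and dermal cells of adult mammals keep a regional Hox pattern long after the embryo. Zebrafish carry duplicated copies of the ancestral vertebrate clusters, marked a and b at the end of the name. The duplicated D cluster keeps hoxda alone as a source of Hox proteins.

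Total counts per library ranged from 15854710 to 34472612. The sort was checked on gmnn, the geminin gene, which averaged 1556 ± 66.7 CPM (read counts put on a common library total and scaled by TMM) in Geminin-positive and 398 ± 30.4 CPM in Geminin-negative libraries (SD, n = 3 each; edgeR adjusted p = 0.01057). The osteoblast gene sp7 was present in all libraries, at 200.3 ± 63.3 CPM in Geminin-positive and 112 ± 34.8 CPM in Geminin-negative libraries (edgeR adjusted p = 0.4642). Markers of osteoblasts took 26.9% to 40.1% of counts in Geminin-positive and 12.9% to 21.3% in Geminin-negative libraries. Of 11 tested, 2 rose (edgeR adjusted p under 0.05), against 0.124% of all genes tested that rose and 0.482% that fell. Log2 fold changes, Geminin-positive over Geminin-negative, were positive in 6 of the 11 and negative in 5 (median 0.02). The higher share was thus not a rise of the whole list. Leukocyte markers took 0.00646% to 0.0158% in Geminin-positive and 0.259% to 0.410% in Geminin-negative libraries, and 5 of 12 tested fell, with coro1a and tyrobp at 0 counts in every Geminin-positive library. Osteoclast markers took 0.0343% to 0.0432% in Geminin-positive and 0.156% to 0.162% in Geminin-negative libraries, and 2 of 7 fell. The share of keratinocyte markers was 0.157% to 0.270% in Geminin-positive and 0.332% to 0.721% in Geminin-negative libraries. That of dermal fibroblast markers was 0.297% to 0.531% in Geminin-positive and 0.245% to 0.284% in Geminin-negative libraries. In both lists 0 members passed the test. Among 9 fibroblast markers tested, 3 had positive and 6 negative log2 fold changes (median -0.58), so most went against the direction of their summed share. For pigment cells the share was 0.000874% to 0.00420% in Geminin-positive and 0.0206% to 0.0263% in Geminin-negative libraries, with 1 of 2 fallen. Over all libraries most of these counts, 14356, were of the fallen gene, tspan36. The other tested marker, csf1ra, is also in the leukocyte list. The untested gch2 went the other way, with a mean of 15.98 CPM in Geminin-positive and 0.034 CPM in Geminin-negative libraries. These genes were named after their values were seen. For erythrocytes the share was 0.00206% to 0.00278% in Geminin-positive and 0.000738% to 0.0105% in Geminin-negative libraries, with 0 past the test. Markers of muscle, endothelium and nerve took at most 0.000981% in any library, and 5 of 7 nerve and Schwann cell markers were at 0 counts in all 6. The part that the other cell types play in the Hox values was not tested, and in bulk libraries fewer cells of a type and less RNA per cell cannot be told apart. Geminin-negative replicate 3 stood farthest from the others on the first principal component, with a score of 203 against -108 to 56.6 in the other 5 libraries. It also had the fewest Hox genes with a count, 25, against 29 to 36 in the others. Over all genes it likewise had the fewest with a count, 11977, against 12284 to 17875 in the others.

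The libraries of sorted scale osteoblasts expressed 31 of the 47 Hox genes, counting a gene as expressed with at least 1 CPM in at least 3 of the 6 libraries. Another 9 had counts but fell below that line, and 7 had 0 counts in all libraries. A count of 0 over the 122132013 pooled counts allows a level of up to 0.0246 CPM, a limit of 3 counts that covers counting error only. The same 31 genes were expressed by a rule of at least 1 TPM (a level that also corrects for gene length) in 3 libraries. Just inside the line, hoxa13a had a third-highest library of 1.07 CPM and hoxa5a of 1.25 CPM. Just outside it, hoxc8a had 0.460 CPM and hoxa2b 0.381 CPM. Of the 31 genes, 23 reached 1 CPM in at least 2 libraries of both gates. In the Geminin-positive gate alone hoxa5a, hoxb6a, hoxc6a and hoxc12b did so, and in the Geminin-negative gate alone hoxa13a, hoxb5a, hoxc12a and hoxd3a.

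By cluster, 6 of the 7 clusters contributed. The hoxcb cluster (chromosome 11, 2099938 to 2133537 in danRer10, as all coordinates here) had 3 of 3 members expressed. The hoxaa cluster (chromosome 19, 20156555 to 20214801) had 5 of 6 and the hoxab cluster (chromosome 16, 21090085 to 21123364) 4 of 5. In hoxda (chromosome 9, 1936252 to 1989526) 5 of 7 members were expressed. The hoxba cluster (chromosome 3, 23523685 to 23640594) and the hoxca cluster (chromosome 23, 35954141 to 36092185) had 7 of 11 each. The exception was hoxbb (chromosome 12, 27026249 to 27051474), with 0 of 4. Of its members hoxb1b, hoxb5b and hoxb6b were at 0 counts in all libraries, and hoxb8b had 14 counts, all in Geminin-negative replicate 1. The hoxba and hoxbb clusters together are known in zebrafish for placing the pectoral fins.

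By paralogue number, the expressed genes lay mostly at the tailward end of the clusters. All 14 members of paralogue numbers 9, 10 and 11 were expressed, in every cluster that holds them. Over numbers 9 to 13, 20 of 22 members were expressed, against 7 of 12 for numbers 5 to 8 and 4 of 13 for numbers 1 to 4. The 4 expressed members of the last set all had paralogue number 3 (hoxa3a, hoxb3a, hoxc3a and hoxd3a). The rows of all 4 span neighbours of higher number. Within hoxa3a lies hoxa5a, within hoxb3a lie hoxb4a to hoxb6a, within hoxc3a hoxc4a to hoxc9a, and within hoxd3a hoxd4a. Which part of these long rows the counts came from was not tested. Paralogue 1, known for hindbrain patterning in zebrafish, had 0 of 4 members expressed, and 3 of them (hoxb1a, hoxb1b and hoxc1a) had 0 counts. Paralogue 2, which specifies the second pharyngeal arch, had 0 of 2, with hoxb2a at 0 counts and hoxa2b at 135 counts over 4 libraries. Paralogue 4 had 0 of 3 expressed, and all 122 counts of hoxb4a and all 41 counts of hoxd4a came from a single Geminin-negative library each.

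**Figure D1:**
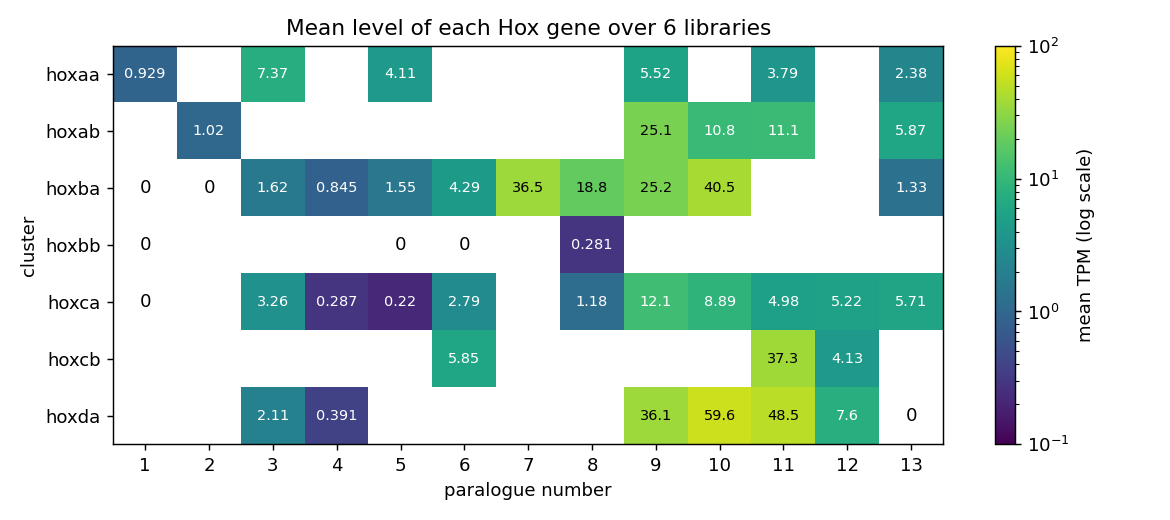
Mean level of each Hox gene over the 6 libraries, in TPM on a log colour scale, by cluster (rows) and paralogue number (columns). A 0 marks a gene with 0 counts in all libraries, and an empty cell a position with no gene in the tables. The highest levels, 36.1 to 59.6 TPM, sit in hoxda at numbers 9 to 11, in hoxba at 7 and 10 and in hoxcb at 11, whereas numbers 1, 2 and 4 stay at or under 1.02 TPM.

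In hoxda the expressed genes were hoxd3a and the run from hoxd9a to hoxd12a, while hoxd4a and hoxd13a were not expressed. Mean levels were 36.1 TPM for hoxd9a, 59.6 TPM for hoxd10a, 48.5 TPM for hoxd11a, 7.60 TPM for hoxd12a and 0 for hoxd13a. The last of these, hoxd13a (chromosome 9, 1986019 to 1989526), is a gene of the distal fin in zebrafish. Its hoxaa and hoxab counterparts hoxa13a and hoxa13b, which in zebrafish are needed for fin rays, were expressed at mean levels of 2.39 ± 3.41 and 5.87 ± 4.75 TPM (SD over 6 libraries). The hoxca counterpart hoxc13a reached 5.71 ± 5.76 TPM, and hoxb13a, at 1.33 ± 2.05 TPM, did not meet the rule for expression. These levels varied widely between libraries, and hoxa13a, hoxc13a and hoxb13a each had a library at 0. In hoxba the levels per length stayed high over a run of neighbours, with 36.5 TPM for hoxb7a, 18.8 TPM for hoxb8a, 25.2 TPM for hoxb9a and 40.5 TPM for hoxb10a. The headward neighbours in that cluster were lower, at 0.845 to 4.29 TPM for hoxb3a to hoxb6a.

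Ordered by mean TPM, hoxd10a (ENSDARG00000057859, chromosome 9, 1966910 to 1969274) came first, at rank 1667 of 21637 genes with any count. It was among the 3 highest Hox genes in all 6 libraries. Paralogue number 10 is known in mice for suppressing ribs in the lumbar region. The gene had 24.2, 65.8 and 48.9 CPM in Geminin-positive replicates 1 to 3, against 32.4, 68.0 and 46.1 CPM in Geminin-negative replicates 1 to 3. Replicate 1 was the lowest of each gate, and the groups overlapped.

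Next in order was hoxd11a, of a paralogue number that patterns the sacral spine and the forearm in mice, with a mean of 48.5 TPM. Its level was 14.3, 44.5 and 46.6 CPM in Geminin-positive replicates 1 to 3, against 22.0, 37.2 and 33.6 CPM in the Geminin-negative ones. In hoxc11b, a hoxcb gene of the same number and 37.3 TPM, the values were 18.9, 25.5 and 22.9 CPM in Geminin-positive and 27.6, 32.9 and 19.7 CPM in Geminin-negative replicates 1 to 3. The hoxc11b values spread little, with an SD of 3.32 CPM in Geminin-positive and 6.65 CPM in Geminin-negative libraries, whereas hoxd11a was lowest in replicate 1 of each gate. Both genes overlapped between gates after TMM scaling.

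In the hoxba cluster hoxb10a had 24.0, 24.2 and 37.4 CPM in Geminin-positive replicates 1 to 3, against 33.9, 25.5 and 16.6 CPM in the Geminin-negative ones. The neighbour hoxb7a had 21.5, 44.8 and 32.03 CPM in Geminin-positive and 24.6, 18.5 and 24.7 CPM in Geminin-negative replicates 1 to 3. For hoxb9a the values were 56.3, 19.5 and 17.9 CPM in Geminin-positive and 45.9, 25.6 and 15.4 CPM in Geminin-negative replicates 1 to 3. Here replicate 1 was the highest of each gate, the opposite of hoxd10a and hoxd11a. The paralogue 9 gene hoxd9a had 16.8, 17.2 and 20.4 CPM in Geminin-positive replicates 1 to 3, against 6.80, 40.2 and 43.3 CPM in the Geminin-negative ones. Its Geminin-positive values lay between those of Geminin-negative replicate 1 and of the other 2.

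The next members in order were hoxa9b, the highest hoxab gene in all 6 libraries, and hoxb8a. The level of hoxa9b was 14.4, 14.4 and 8.84 CPM in Geminin-positive replicates 1 to 3, against 24.96, 27.5 and 14.2 CPM in the Geminin-negative ones. Geminin-negative replicate 3 lay just below the higher Geminin-positive libraries, so the gates overlapped after TMM scaling (log2 fold change -0.82, 95% interval -2.03 to 0.38, edgeR adjusted p = 0.8562). For hoxb8a the values were 17.2, 3.25 and 15.2 CPM in Geminin-positive and 25.3, 16.5 and 15.03 CPM in Geminin-negative replicates 1 to 3, with Geminin-positive replicate 2 far below the other 5.

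Members further down the order are given by a few examples. In hoxab, hoxa10b had 7.12, 7.86 and 8.21 CPM in Geminin-positive and 10.5, 4.61 and 11.3 CPM in Geminin-negative replicates 1 to 3. Its neighbour hoxa11b had 16.1, 6.20 and 10.3 CPM in Geminin-positive and 10.8, 0.824 and 13.2 CPM in Geminin-negative replicates 1 to 3, replicate 2 being the lowest of each gate. In hoxca, hoxc11a had 3.69, 0.216 and 2.88 CPM in Geminin-positive and 13.9, 9.997 and 0 CPM in Geminin-negative replicates 1 to 3, so that 1 Geminin-negative library lacked the gene. Among headward genes hoxc3a was even in Geminin-positive replicates 1 to 3, at 5.85, 6.13 and 6.39 CPM, and ranged over 1.84, 4.07 and 8.64 CPM in the Geminin-negative ones.

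**Figure D2:**
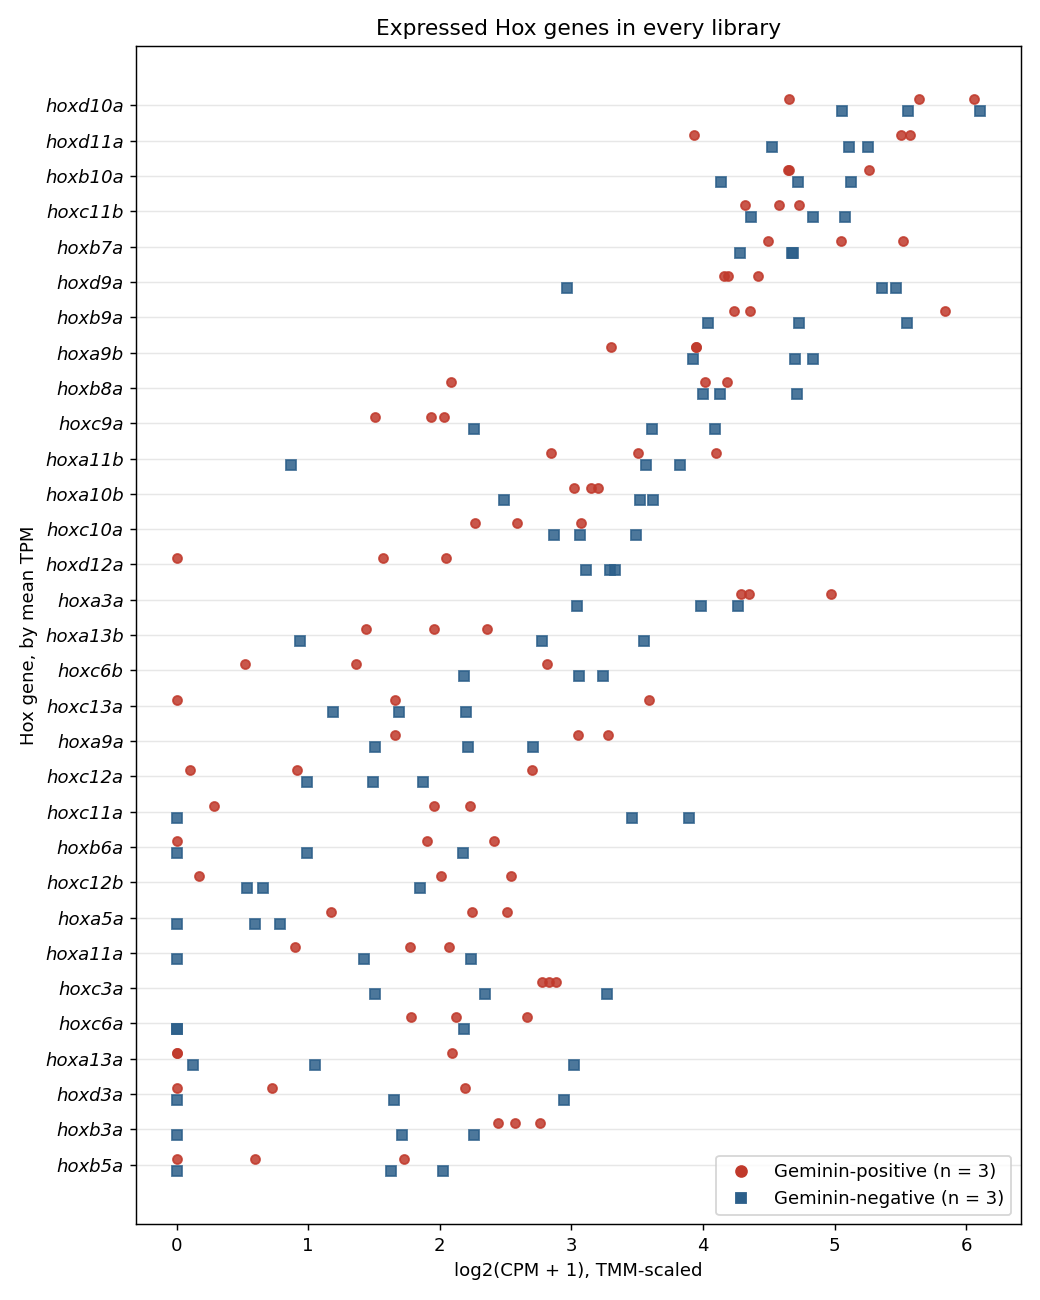
Level of the 31 expressed Hox genes in every library, as log2(CPM + 1) after TMM scaling, ordered from the highest mean TPM at the top. Circles are Geminin-positive and squares Geminin-negative libraries (n = 3 each). The groups overlap for most genes, and points at 0 are libraries without a count, which 11 of the 31 genes have.

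The order of neighbouring levels was not firm. Among the 30 adjacent pairs of expressed genes in order of mean TPM, 0 had the higher gene ahead in all 6 libraries, 3 had it ahead in 5, and 27 in 4 or fewer. The 6 highest genes together made up 56.8% of the summed Hox TPM and the 10 highest 74.6%. Below them the levels thinned out: 11 of the 31 expressed genes had 0 counts in at least 1 library, and Geminin-negative replicate 3 lacked 6 of the 31. Of the 32 Hox genes that passed the low-count filter, 37.5% had a library at 0, against 37.6% of all 12855 genes that did.

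Within each library, the make-up of the Hox signal does not depend on how libraries are scaled to each other. Paralogue numbers 9, 10 and 11 made up 67.6% to 71.2% of the summed Hox TPM in Geminin-positive and 71.7% to 76.8% in Geminin-negative libraries, without overlap. Taken alone, each of these numbers overlapped between gates. Numbers 9 to 13 made up 73.21% to 77.92% in Geminin-positive and 77.99% to 85.98% in Geminin-negative libraries, apart by a narrow margin. Numbers 5 to 8 made up 16.8% to 21.2% in Geminin-positive and 10.8% to 18.7% in Geminin-negative libraries. Numbers 1 to 4 made up 3.20% to 5.65% in Geminin-positive and 3.19% to 3.35% in Geminin-negative libraries. These are descriptions of 3 libraries each, without a test.

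By cluster, replicate 1 of both gates stood apart, a pattern chosen for description after the values were seen. The hoxda genes made up 21.8%, 38.8% and 35.6% of the summed Hox TPM in Geminin-positive replicates 1 to 3 and 22.0%, 40.0% and 45.4% in Geminin-negative replicates 1 to 3. The hoxba genes made up 36.3%, 26.5% and 31.4% in Geminin-positive and 35.9%, 21.9% and 20.7% in Geminin-negative replicates 1 to 3. In both gates replicate 1 thus had the smallest share of hoxda and the largest share of hoxba. Shares of a sum are not independent, as a small hoxda share raises the others. In summed TPM hoxda was also lowest in replicate 1 of each gate. For hoxba, Geminin-negative replicate 1 was the highest of its gate, but Geminin-positive replicate 1, at 138.1 TPM, lay below replicate 3, at 140.3 TPM. The labels do not say whether equal replicate numbers mark the same fish or day. Of all clusters, hoxaa alone had a share that did not overlap between gates, at 5.83% to 8.23% in Geminin-positive and 2.64% to 4.53% in Geminin-negative libraries. The summed hoxaa TPM itself overlapped, at 21.93 to 36.81 in Geminin-positive and 12.25 to 23.35 in Geminin-negative libraries. These cluster shares were not tested.

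**Figure D3:**
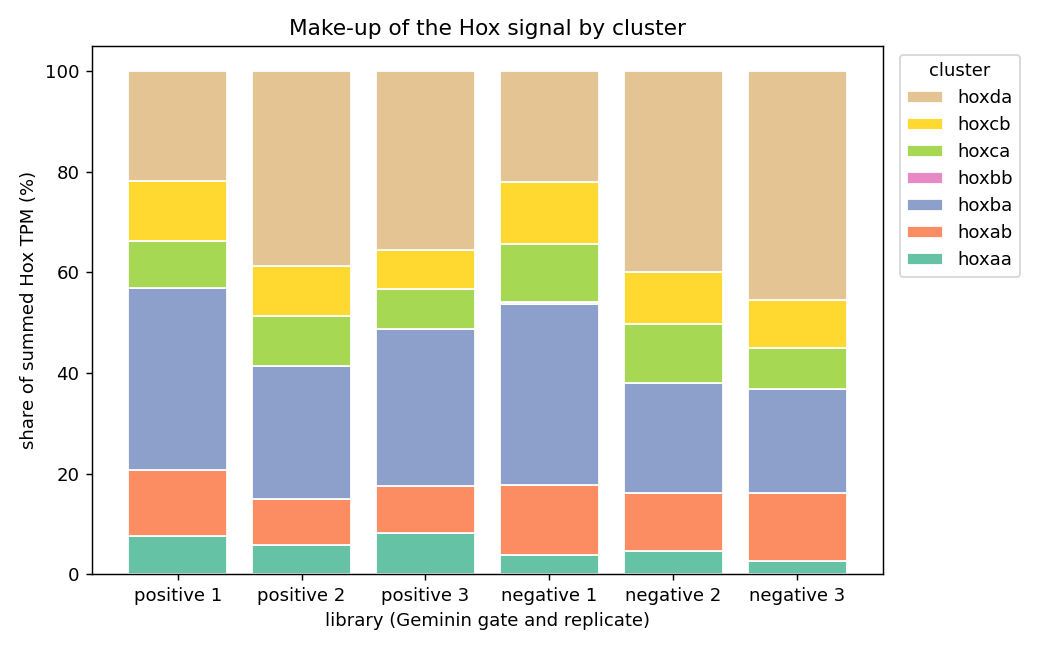
Share of the summed Hox TPM held by each cluster, in percent, for Geminin-positive replicates 1 to 3 (left) and Geminin-negative replicates 1 to 3 (right). Replicate 1 of each gate has the smallest hoxda share, 21.8% and 22.0%, and hoxbb is seen in Geminin-negative replicate 1 alone.

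Hox levels were then compared between Geminin-positive and Geminin-negative cells. Of the 32 Hox genes tested 0 rose and 0 fell (edgeR quasi-likelihood test, Benjamini-Hochberg adjustment over all genes), against 0.607% of all genes tested, 78 of 12855. Of all genes 0.124% rose and 0.482% fell. Adjusted p-values ran from 0.7723 to 0.9999. At an unadjusted p under 0.05 there were also 0 Hox genes, against 9.4% of all genes, 5.76% being lower. DESeq2 called 0 Hox genes, with 1 of 40, hoxc9a, at an unadjusted p under 0.05, against 2208 of 20664 over all genes. With limma-voom 0 of 32 were called and 0 were at that level, against 1618 of 12855 over all genes. Log2 fold changes were positive in 17 and negative in 15 genes, and negative in 50.4% of all genes tested. Their median was 0.14, against -0.01 for all genes. The 32 are the members that passed the filter on low counts, and the other 15 were not tested.

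How firmly a difference is bounded varied between genes. For hoxc11b the log2 fold change was -0.25 (95% interval -1.19 to 0.69), and for hoxb10a it was 0.17 (-0.82 to 1.17). Similar bounds held for hoxd10a, at -0.08 (-1.12 to 0.96), and for hoxb7a, at 0.54 (-0.43 to 1.502). In 6 of the 32 genes the interval lay within 2 log2 units either way, and in 0 within 1. At the other end, hoxc8a, with counts in 3 of the 6 libraries, had a log2 fold change of 3.02. Its interval of -3.32 to 9.36 holds large differences in either direction. The failure to pass the test does not show that the gates have equal Hox levels.

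**Figure D4:**
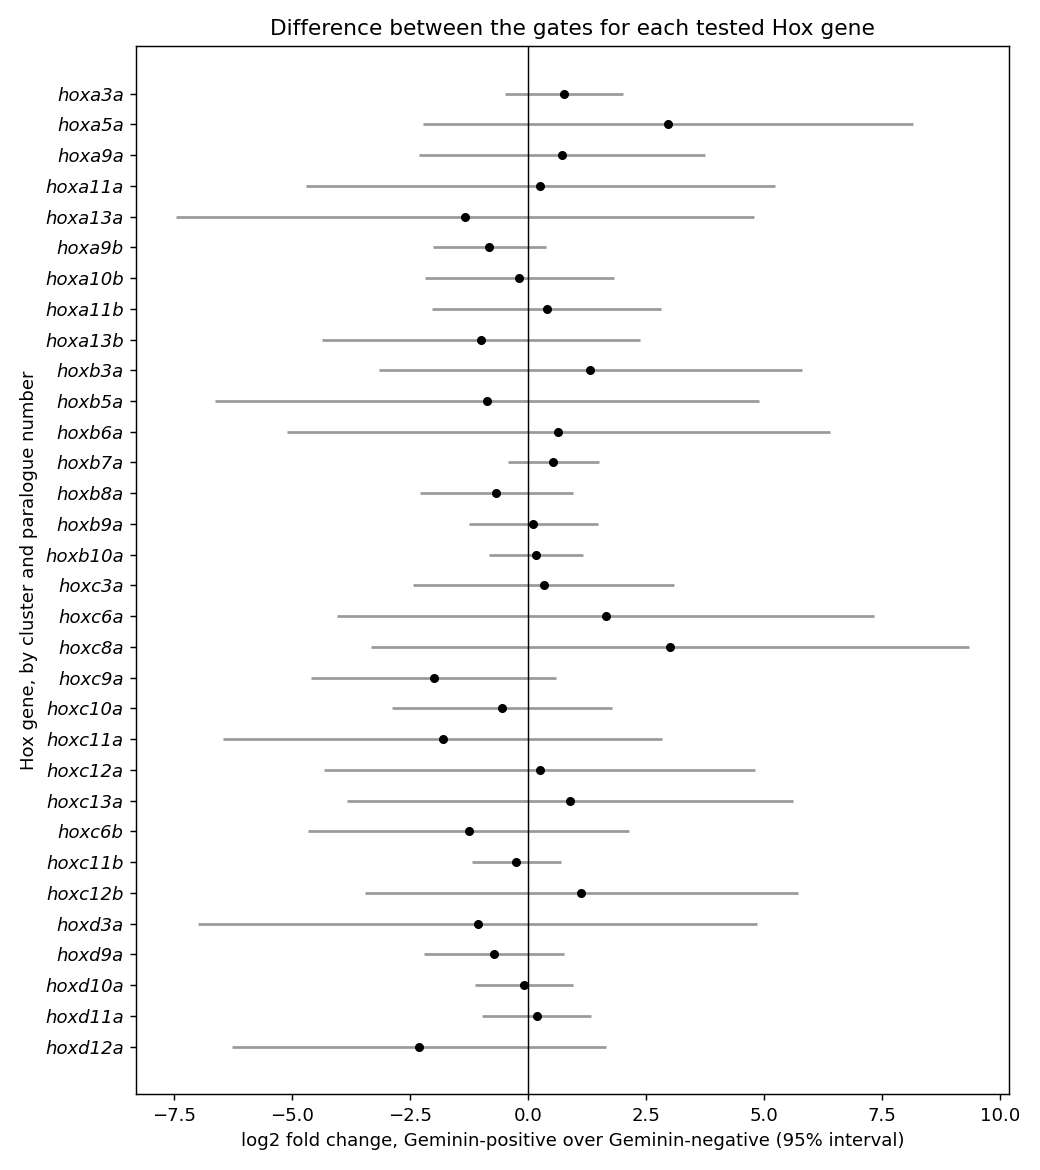
Log2 fold change, Geminin-positive over Geminin-negative, for the 32 tested Hox genes by cluster and paralogue number. Points are edgeR estimates and lines their 95% intervals. All 32 intervals include 0, from the narrow one of hoxc11b (-1.19 to 0.69) to the wide one of hoxc8a (-3.32 to 9.36).

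The gates did not overlap in 5 of the 32 genes, or 15.6%, against 18.4% of all genes tested. Lower in Geminin-positive libraries were hoxc9a and hoxd12a (10.3% of all genes were lower without overlap). The paralogue 9 gene hoxc9a (ENSDARG00000092809, chromosome 23, 35996457 to 35998685) had 1.84, 3.10 and 2.82 CPM in Geminin-positive replicates 1 to 3, against 11.3, 16.1 and 3.78 CPM in Geminin-negative replicates 1 to 3. It had the smallest p of the family, and the log2 fold change was -2.001, with an SE of 1.14 (edgeR adjusted p = 0.7723). Of its exon bases 9.32% are shared with a gene on the opposite strand, and reads of overlapping genes cannot be told apart without a stated strand.

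In hoxda, hoxd12a (ENSDARG00000059263, chromosome 9, 1981038 to 1985217) had 1.97, 0 and 3.13 CPM in Geminin-positive replicates 1 to 3, against 7.62, 9.09 and 8.82 CPM in the Geminin-negative ones. The log2 fold change was -2.32, with an SE of 1.74 (edgeR adjusted p = 0.9459). The sign stayed negative in all 13 alternative fits for hoxd12a, and for hoxc9a in all but that at a minimum of 5 CPM, where it was not tested. Both genes were picked for not overlapping, so refits of the same libraries could hardly turn the sign and add no support. TMM factors were 0.728 to 0.959 in Geminin-positive and 1.06 to 1.247 in Geminin-negative libraries, so leaving them out could only widen the gap. Under scaling by library size alone the gates did not overlap in either gene, which was thus fixed in advance. With that scaling, a comparison added after the data were seen, the genes without overlap were 1 higher (hoxa5a) and 6 lower in Geminin-positive libraries, the lower ones being hoxa9b, hoxb8a, hoxc9a, hoxc10a, hoxc11b and hoxd12a. Of all genes tested 3.65% were then higher and 17.8% lower without overlap.

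Higher in Geminin-positive libraries without overlap were hoxa3a, hoxb3a and hoxa5a (8.09% of all genes were higher without overlap). The paralogue 3 gene hoxa3a had 19.4, 18.6 and 30.3 CPM in Geminin-positive replicates 1 to 3, against 18.2, 14.8 and 7.24 CPM in Geminin-negative ones (log2 fold change 0.76, edgeR adjusted p = 0.9234). For hoxb3a the values were 4.45, 5.77 and 4.95 CPM in Geminin-positive and 3.79, 2.28 and 0 CPM in Geminin-negative replicates 1 to 3. The third, hoxa5a, had 4.70, 3.75 and 1.25 CPM in Geminin-positive and 0.511, 0 and 0.720 CPM in Geminin-negative replicates 1 to 3. Neither of these 2 genes passed the test (edgeR adjusted p = 0.9999 for hoxb3a and 0.9552 for hoxa5a). Under scaling by library size alone hoxa3a and hoxb3a overlapped between gates. The rows of hoxa5a and hoxa3a share exon bases, 30.3% of hoxa5a, so that reads there may count for either or neither.

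The Hox genes as a whole took 0.0292% ± 0.00333 of counts in Geminin-positive and 0.0426% ± 0.00214 in Geminin-negative libraries, without overlap. After TMM scaling the summed level overlapped, at 344 ± 26.2 CPM in Geminin-positive and 364 ± 41.5 CPM in Geminin-negative libraries (SD, n = 3 each). The summed Hox TPM, which is not TMM-scaled, did not overlap, at 401 ± 39.95 in Geminin-positive and 509 ± 41.7 in Geminin-negative libraries. With library size as the sole scaling, the median log2 fold change was -0.47 over all genes tested and -0.32 over the Hox genes. Osteoblast markers took a mean of 33.1% of counts in Geminin-positive and 16.1% in Geminin-negative libraries, and the part of this in the raw Hox share was not tested.

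Hox proteins bind DNA together with cofactors of the TALE homeodomain class, the Pbx, Meis and Pknox proteins. Of 12 cofactor genes measured, 6 were expressed, and pbx3b, meis2b and meis3 had 0 counts in all libraries. Among 7 tested, all estimates were below 0 (median log2 fold change -0.65, against -0.01 for all genes), and 0 passed the test and 0 had an unadjusted p under 0.05 (edgeR). The highest was meis1b, at 110.1, 82.1 and 116 CPM in Geminin-positive and 127, 156 and 74.2 CPM in Geminin-negative replicates 1 to 3 (log2 fold change -0.21, 95% interval -0.97 to 0.54). The gates overlapped there. They did not overlap for pbx4, at 85.4, 60.4 and 78.4 CPM in Geminin-positive and 88.7, 102 and 142 CPM in Geminin-negative replicates 1 to 3 (edgeR adjusted p = 0.6745). Likewise meis1a had 16.1, 24.7 and 25.4 CPM in Geminin-positive and 43.5, 38.6 and 28.0 CPM in Geminin-negative replicates 1 to 3 (edgeR adjusted p = 0.7272). Of all genes tested, 10.3% were lower in Geminin-positive libraries without overlap. The gates overlapped for pbx1a, at 70.4, 20.3 and 25.4 CPM in Geminin-positive and 79.1, 54.5 and 93.6 CPM in Geminin-negative replicates 1 to 3 (edgeR adjusted p = 0.6882).

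**Figure D5:**
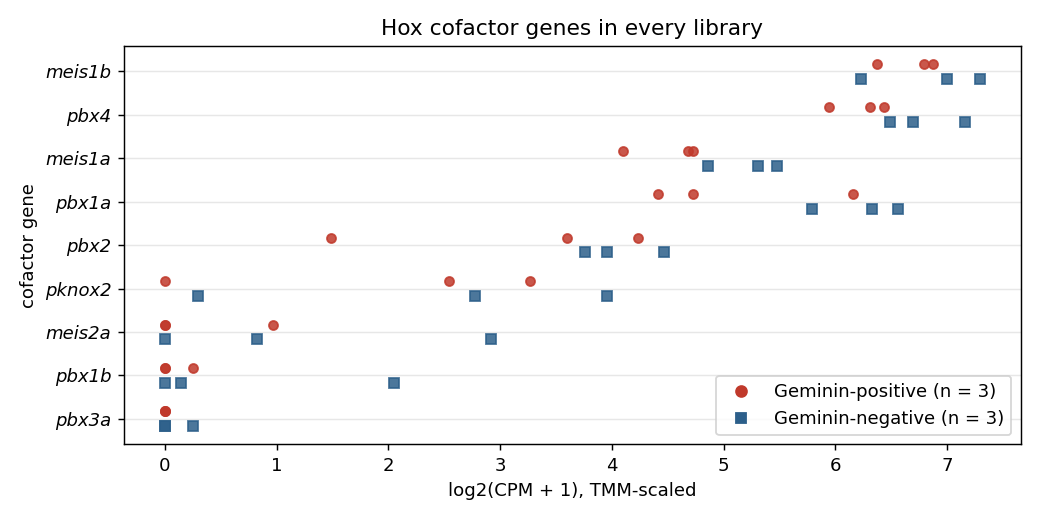
Level of the 9 Hox cofactor genes with any count in every library, as log2(CPM + 1) after TMM scaling. Circles are Geminin-positive and squares Geminin-negative libraries (n = 3 each). The gates do not overlap for pbx4 and meis1a, which lie lower in Geminin-positive libraries, as do 10.3% of all genes tested. They overlap for meis1b and pbx1a.

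Cdx factors and retinoic acid switch Hox genes on in the embryo. Of 20 such genes measured, 13 were expressed and tested, with 4 positive and 9 negative log2 fold changes and a median of -1.76. Of these 0 passed the test, and 3 had an unadjusted p under 0.05, against 9.4% of all genes (edgeR). The gene cdx4 had 0 counts in all libraries, and the other listed Cdx genes, cdx1a and cdx1b, were not among the genes measured. The retinoic acid-degrading enzyme gene cyp26a1 averaged 129 ± 20.04 CPM in Geminin-positive and 127 ± 37.99 CPM in Geminin-negative libraries, and the receptor gene rarga 142 ± 54.4 CPM in Geminin-positive and 161 ± 44.6 CPM in Geminin-negative libraries (SD, n = 3 each). A second enzyme gene, cyp26b1, had 3.94, 0 and 0 CPM in Geminin-positive replicates 1 to 3, against 144.9, 29.8 and 6.43 CPM in Geminin-negative ones (edgeR adjusted p = 0.3254). The carrier protein gene crabp2b had 1.65, 2.81 and 1.44 CPM in Geminin-positive and 70.2, 26.8 and 4.86 CPM in Geminin-negative replicates 1 to 3 (edgeR adjusted p = 0.1349). In both genes the gates did not overlap (10.3% of all genes were lower without overlap), and Geminin-negative replicate 1 was the highest library.

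Polycomb proteins keep Hox genes silent and Trithorax proteins keep them active. Of 34 genes of both groups measured, 32 were tested, 13 with a positive and 19 with a negative log2 fold change (median -0.12). Of these 0 passed the test and 3 had an unadjusted p under 0.05, against 9.4% of all genes (edgeR). The core Polycomb ligase gene rnf2 averaged 60.4 ± 25.02 CPM in Geminin-positive and 52.6 ± 11.97 CPM in Geminin-negative libraries. The histone-binding gene rbbp4 averaged 63.7 ± 3.35 CPM in Geminin-positive and 51.4 ± 16.5 CPM in Geminin-negative libraries, and the Trithorax complex gene rbbp5 28.9 ± 5.22 CPM in Geminin-positive and 31.3 ± 13.1 CPM in Geminin-negative libraries (SD, n = 3 each). The adjusted p of all 3 was 0.9999 (edgeR). The chromodomain gene cbx7a had 49.8, 14.6 and 13.5 CPM in Geminin-positive and 46.2, 89.0 and 61.7 CPM in Geminin-negative replicates 1 to 3 (edgeR adjusted p = 0.5013).

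Other homeobox and T-box genes of position and pattern were measured beside the Hox family. Of 51 measured, 19 were expressed and tested, and 13 had 0 counts in all libraries, among them otx2a and otx2b of the head. Log2 fold changes were above 0 in 10 of the 19 tested and below in 9 (median 0.27). In all, 0 passed the test, and 7 had an unadjusted p under 0.05, against 9.4% of all genes (edgeR). The Iroquois gene irx3a had 545, 397 and 394 CPM in Geminin-positive and 219, 189 and 176 CPM in Geminin-negative replicates 1 to 3 (log2 fold change 1.196, edgeR adjusted p = 0.08466). Its relative irx5a had 128, 103 and 82.2 CPM in Geminin-positive and 56.0, 31.7 and 26.6 CPM in Geminin-negative replicates 1 to 3 (edgeR adjusted p = 0.1619). Neither gene overlapped between gates (8.09% of all genes were higher without overlap). The engrailed gene en1b had 105.7, 92.9 and 109.9 CPM in Geminin-positive and 121, 93.0 and 112 CPM in Geminin-negative replicates 1 to 3 (log2 fold change -0.08, 95% interval -0.65 to 0.49, edgeR adjusted p = 0.9999).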

How the data were processed

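Each library has a deposited file of raw read counts, made by the authors with 1 row per Ensembl gene, which also gives gene coordinates and length. The submitters' processing notes name Trim Galore 0.4.1, TopHat2 2.1.1, featureCounts 1.6.1 and the build danRer10. The strand setting, the handling of multi-mapped reads and the annotation release were not given in the sources used here. Symbols were looked up by Ensembl identifier and, for 32 of the 47 members, completed by base name and chromosome in the RefSeq annotation of assembly GRCz12tu, from which no coordinate was taken. Protein and promoter sequences were not used here.

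The tests used edgeR 4.0.16 (R 4.3.3). After filterByExpr and TMM scaling, Geminin-positive was compared with Geminin-negative by a quasi-likelihood F test, robust, with p-values adjusted over all genes (Benjamini-Hochberg, threshold 0.05). The SE was derived from the fold change and F, and intervals are 95%. CPM serve to compare libraries and TPM, from counts and lengths, to compare genes. Alternatives were DESeq2 1.42.0, limma-voom (limma 3.58.1), other scalings and filters, a replicate block and each library left out. No pair of libraries was a duplicate (smallest chi-square per degree of freedom 85.01). Nothing in the labels says that libraries of a group came from separate groups of fish, so p-values measure the spread between these samples.

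Members, gene lists and tests were chosen with earlier results of these data known. The text may name every Hox gene, the members of other lists that pass the test and the 4 of each list with the highest mean TPM, of which 1 is not reported here, and markers at 0; cdx4, otx2a, otx2b, pbx3b, meis2b and meis3 were named as examples of genes at 0 after their values were seen.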

Additional observations from a re-analysis of the deposited data

How the results depend on the processing

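The count of 0 Hox genes past the threshold held in all 13 alternative fits, with smallest adjusted p-values from 0.1299 (hoxc9a, DESeq2) to 0.8065 (hoxa1a, without Geminin-positive replicate 2). Over all genes the 78 calls became 844 with DESeq2, 557 without a filter, 134 with the replicate block and 185 with library size only, of which 12 were higher, against 16 of 78. Leaving out Geminin-positive replicate 1, 2 or 3 gave 96, 34 or 40, and leaving out Geminin-negative replicate 1, 2 or 3 gave 32, 22 or 25. The 31 expressed genes became 17 at a minimum of 5 CPM, 20 with a count required in every library, and 25 to 30 with each library left out. The last of these kept the rule of 3 libraries, so the count could not rise. A rule of at least 1 CPM in at least 2 libraries of the same gate kept the 31 and added hoxa1a and hoxc8a.

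Signs turned in Hox genes that were not called, and the cause was not tested. With library size only, the log2 fold change was -0.075 for hoxa11a, -0.086 for hoxa11b, -0.31 for hoxb9a, -0.29 for hoxb10a, -0.15 for hoxc3a, -0.18 for hoxc12a and -0.33 for hoxd11a. With limma-voom it was 0.10 for hoxa10b, -1.02 for hoxc12a, -1.34 for hoxc13a and -0.020 for hoxd11a. With the replicate block it was -0.20 for hoxb6a, -1.30 for hoxc12a, -0.13 for hoxc13a and 0.55 for hoxd3a. Leaving out each library gave ranges that include 0 for hoxa11a (-0.35 to 1.27), hoxa11b (-0.16 to 0.82), hoxa13a (-8.90 to 0.82), hoxb6a (-0.13 to 2.23), hoxb9a (-0.63 to 0.62), hoxb10a (-0.10 to 0.45), hoxc3a (-0.035 to 1.02), hoxc12a (-1.90 to 0.82), hoxc13a (-1.13 to 1.48), hoxd3a (-3.16 to 0.30), hoxd10a (-0.41 to 0.24) and hoxd11a (-0.068 to 0.56).

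Deviations of libraries with equal replicate numbers correlated across genes at 0.182, 0.0580 and 0.0403 for numbers 1, 2 and 3. Each Geminin-positive library correlated best with its own number. For Geminin-positive replicate 2 the margin was narrow, at 0.0580 against 0.0522 with Geminin-negative replicate 3. This is at most a weak hint from the data and not from the design. The block is therefore an alternative and not the pairing of the study.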

Other observations

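The spans of the 7 clusters were overlapped by 26 rows that are not Hox genes, some of which run past a cluster's end. All 9 microRNA rows, of the mir10 and mir196 families, were at 0 counts in all libraries. These rows are 72 to 110 bases long. Whether such short transcripts could be recorded in these libraries was not tested, so the 0 counts do not show absence. Of the other 17 rows 4 were at 0 and 6 were tested, with 0 past the threshold (edgeR adjusted p from 0.5681 to 0.9999). Most of their counts, 7005, belonged to tax1bp1b, whose row spans hoxab on the opposite strand without sharing exon bases with a Hox gene, and whose log2 fold change was -0.70 (edgeR adjusted p = 0.5681). The unnamed row ENSDARG00000096956, on the strand opposite to hoxc10a, shares 46.7% of the exon bases of hoxc10a. It had 3, 40 and 76 counts in Geminin-positive replicates 1 to 3 and 28, 157 and 0 counts in Geminin-negative replicates 1 to 3. The corresponding counts of hoxc10a were 117, 53 and 80 in Geminin-positive and 123, 268 and 228 in Geminin-negative libraries. Among the rows at 0, ENSDARG00000100358 shares exon bases with hoxa9a and hoxa3a on the same strand. For hoxa9a this overlap covers 25.7% of its exon bases. Reads there may count for either gene or neither, so the 0 of this row does not show absence.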
